A study of Mus musculus with 40 samples.

Results

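The 10 genes described here encode molecular chaperones of the heat shock families, and they were taken by symbol from the 23284 genes of the pI-pC and antibody count table and the 23107 genes of each tamoxifen count table. All 10 symbols were in all 3 tables. They are Hspa1a, Hspa1b, Dnajb1, Hsph1 and Hsp90aa1, which belong to the stress-inducible cytosolic chaperones, Hspa8, Hspa4 and Hsp90ab1, which are expressed constitutively in the cytosol, and Hspd1 and Hspe1, the mitochondrial chaperonin and its co-chaperonin. RNA came from C57BL/6 mouse thymocytes in 40 libraries and 12 groups. ETP are the earliest T-cell precursors in the thymus, and DN3 are the later double-negative cells that rearrange the T-cell receptor beta chain. The libraries ask how gene expression at each stage responds when Zmiz1, a co-activator of Notch1, is deleted or when Notch1 itself is blocked.

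In the pI-pC experiment, MxCre Zmiz1f/f mice (DeltaMxCre) were compared with mice that carried MxCre alone, with 3 mice per group. Mice of both genotypes received 40 mcg of pI-pC every 2 days for 5 injections, and cells were sorted 8 weeks later. In the tamoxifen experiment, Rosa26CreERT2 Zmiz1f/f mice (DeltaTamCre) were compared with Rosa26CreERT2 mice (TamCre), with 4 mice per group, all given tamoxifen at 0.2 mg/g and sorted after 43 to 44 hours. In the antibody experiment, mice received a Notch1-blocking antibody, anti-NRR (AntiNRR), or an isotype control (IgG) at 10 mg/kg and cells were sorted after 24 hours, with 3 libraries per group. The labels do not give the number of mice behind the antibody libraries, so their p-values measure the spread between these libraries, which may be technical. Both Cre controls carried the recombinase and received the inducing agent, so the groups compared share Cre and the agent. Whether the response to either differed with genotype was not tested. MxCre responds to interferon and Rosa26CreERT2 is not restricted to the T lineage, so neither deletion is confined to thymocytes by its driver. RNA came from DN3 or ETP cells sorted straight into lysis buffer.

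Chaperones of the HSP70 family bind exposed hydrophobic stretches of unfolded proteins in cycles of ATP hydrolysis. J-domain proteins such as Dnajb1 start the cycle, and the HSP110 proteins Hsph1 and Hspa4 reset it by nucleotide exchange. HSP90 proteins act later, on near-native clients that include kinases and steroid receptors, and the Hspd1 and Hspe1 complex folds proteins imported into mitochondria. In stressed cells heat shock factor 1 binds repeats of a GAA unit in alternating orientation, the heat shock element, and raises transcription of the inducible members within minutes. In dividing cells many constitutive members also follow growth and protein synthesis.

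Promoter sequences are shown for the pair of genes that varied most among libraries and for the pair that shares 1 promoter region. Hspa1a lies at chr17:34969190-34972156 and Hspa1b at chr17:34956436-34959238, both on the minus strand and both with 1 exon (GENCODE M21, GRCm38). Their start sites are 12918 bases apart. The 150 bases before each start in RefSeq's GRCm38.p6 promoter table follow, with a pair of adjacent heat shock units in capitals, for Hspa1a at chr17:34972157-34972306 and for Hspa1b at chr17:34959239-34959388, each on the minus strand.
Hspa1a: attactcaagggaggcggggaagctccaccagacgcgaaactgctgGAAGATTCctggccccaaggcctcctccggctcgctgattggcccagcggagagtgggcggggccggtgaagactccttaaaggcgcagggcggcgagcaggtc
Hspa1b: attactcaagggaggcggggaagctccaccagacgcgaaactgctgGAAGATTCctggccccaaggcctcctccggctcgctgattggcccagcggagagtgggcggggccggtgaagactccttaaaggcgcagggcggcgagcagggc
These stretches differed at 1 of 150 positions. Over the 1926 coding bases that aligned, 1918 were identical (99.58%). Reads from the 2 genes can therefore be assigned to either copy, and how the authors' counting treated such reads is not given in the sources used here, so the sum of both genes is also reported.

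Hspd1 (chr1:55077835-55088243, minus strand) and Hspe1 (chr1:55088132-55091307, plus strand) lie head to head, and their annotated ends overlap. RefSeq's table gives Hspd1 an outer start, at the printed end of the gene, and an inner start 216 bases from the start of Hspe1. The region between the inner start and Hspe1 holds adjacent heat shock units, shown in capitals at chr1:55088053-55088082 on the plus strand.
Hspd1-Hspe1: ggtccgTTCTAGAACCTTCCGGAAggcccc
A search on both strands for 3 units, GAANNTTCNNGAA or TTCNNGAANNTTC, matched 0.603% of the 32851 RefSeq windows that run from 250 bases before to 50 after a start. A search for 2 units, GAANNTTC or TTCNNGAA, which every 3-unit match also contains, matched 15.056% of them. Of the 10 members 7 had a window, and Hspa8, Hsp90aa1 and Hsp90ab1 were not searched. The 3-unit motif was in a window of 3 members, Hsph1, Hspe1 and Hspd1 (in the window of its inner start, while that of its outer start held neither motif), and the 2-unit motif was in a window of 5, with Hspa1a and Hspa1b added. The windows of Dnajb1 and Hspa4 held neither. GENCODE M21 also names 5 pseudogenes for Hspd1 and 6 for Hspe1, with which reads could be shared.

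Libraries held 9456818 to 23962395 counts each where pI-pC or antibody was given, 48127197 to 91659598 for DN3 after tamoxifen and 17418638 to 30975324 for ETP after tamoxifen. The 3 tables come from different library kits, so levels are compared within a table. Zmiz1 was lower in every deleted library than in every control of its pair, at 58.7 to 114 CPM (counts scaled to library size) against 157 to 319 CPM in pI-pC ETP and at 120.2 to 307 against 417 to 461 CPM in tamoxifen ETP. By the labels, DN3 and ETP were gated alike for CD44 and CD25, yet Cd44 averaged 0.649 to 5.45 CPM in the DN3 groups and 59.6 to 194 CPM in the ETP groups, and Ptcra averaged 69.1 to 379 CPM in DN3 and 3.93 to 46.5 CPM in ETP, so the labelled stages were separate in these markers. Il2ra, which encodes CD25, was not separate, at group means of 637 to 4936 CPM in DN3 and 573 to 4732 CPM in ETP. After tamoxifen, Rag1 averaged 975 CPM in DeltaTamCre ETP (libraries 97.2 to 2626) and 798 CPM in TamCre ETP (71.9 to 1280). In tamoxifen DN3, from another kit, its group means were 642 and 631 CPM. Cd8a averaged 127 and 108.6 CPM in these ETP groups against 24.0 and 12.53 CPM in DN3. Where pI-pC or antibody was given, Rag1 was higher in DN3, at group means of 1983 to 4635 CPM against 255 to 669 CPM. What part this had in the tamoxifen ETP values was not tested. The ribosomal precursor Rn45s took 0.356% to 8.82% of counts in DN3 libraries and 7.41% to 31.5% in ETP libraries. In bulk samples, fewer cells of a type and less RNA per cell cannot be told apart.

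Hspa8 and Hsp90ab1 were the most abundant members per length, and Hspa1a and Hspa1b the least. In MxCre ETP the mean level per kilobase of exon was 1162 CPM for Hspa8 (SD 171, n = 3) and 1133 CPM for Hsp90ab1 (SD 150.4). These neighbours overlapped. Hsp90aa1 followed at 328 CPM per kilobase (SD 109), then Hspd1 at 97.9, Hspa4 at 90.4, Dnajb1 at 50.01, Hspe1 at 31.9 and Hsph1 at 24.0 CPM per kilobase. In IgG DN3 the same genes ran from 853 CPM per kilobase for Hspa8 to 17.9 for Dnajb1, while Hspa1b and Hspa1a lay at 0.204 and 0.1495. The 10 genes together took 0.611% to 1.54% of all counts in a library.

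Of the 6 treated-control pairs, Notch1 block in DN3 cells was the 1 in which members passed the threshold, an adjusted p (Benjamini-Hochberg) under 0.05 in edgeR's quasi-likelihood test. There 4 of the 9 members tested were lower, Hspd1, Hsp90aa1, Hsp90ab1 and Hspa4, and 0 were higher. Over all genes in that comparison 5.61% were called in either direction and 2.96% were called lower. Their median log2 fold change was -0.35, against -0.01 for all genes, and 4 members were lower in every treated library than in every control, as were 11% of all genes. DESeq2 also called 4 members, among 934 genes called in all, where edgeR called 710 of 12658. The edgeR count of members became 0 when the spread was estimated over all 8 groups of the table in place of these 2 groups. Under that setting 69 genes were called in all. The members were chosen with earlier results of these data known, so their share beside that of all genes is a description and not a test.

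In the other 5 pairs edgeR called 0 members, and so the values below are given without a call. In pI-pC ETP, where 0.0416% of all genes were called, 9 of 10 members had a log2 fold change below 0, as did 52.5% of genes. The member median was -0.45 against -0.03 for all genes. There 4 members had an unadjusted p under 0.05 (5.56% of genes), DESeq2 called 1 (Hsph1), and 5 members were lower in every deleted library, as were 6.46% of genes. In pI-pC DN3, where 1.44% of genes were called, 8 of 10 members were below 0, as were 51.6% of genes. The member median was -0.14 against -0.01 for all genes. In that pair 2 had an unadjusted p under 0.05, near the share of all genes (16.1%), DESeq2 called 1 (Hsp90ab1), and 4 were lower in every deleted library against 10.5% of genes.

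In tamoxifen ETP, with 0% of genes called, 0 members had an unadjusted p under 0.05 (4.95% of genes), the median was -0.13 against 0.03 for all genes, DESeq2 called 0, and 1 member was lower in every deleted library against 2.19% of genes. In tamoxifen DN3, with 0.0827% of genes called, all 10 members were below 0, as were 47.8% of genes. The median there was -0.22 against 0.01, 2 members had an unadjusted p under 0.05, near the share of all genes (15.6%), DESeq2 called 0 of the 8 for which it gave an adjusted p, and 1 was lower in every deleted library against 5.81% of genes. Under Notch1 block in ETP, with 0% of genes called, 8 of 10 members were below 0, as were 48.8% of genes. The member median was -0.35 against 0.01 for all genes. In that pair 4 members had an unadjusted p under 0.05 (5.47% of genes), and 1 of these, Dnajb1, was higher. DESeq2 called 1 (Hsph1), and 2 were lower in every treated library against 5.96% of genes. The members share libraries and some share a promoter, so counts of signs are descriptions of these libraries.

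**Figure D1:**
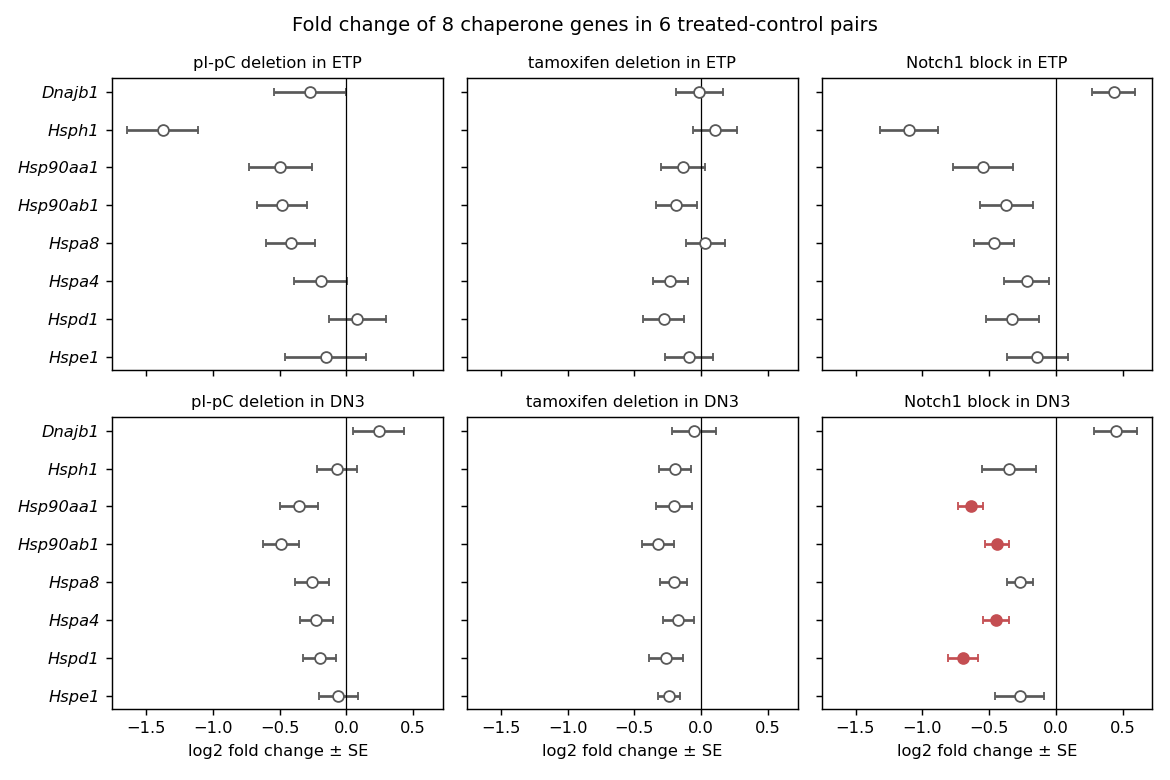
Log2 fold change (x axis, treated or deleted minus control, with its standard error) of 8 members (y axis) in the 6 pairs, 1 panel per pair. Filled red points passed an adjusted p under 0.05 in edgeR and open points did not. Hspa1a and Hspa1b are left out because their standard errors reached 2.34. The 4 filled points, at -0.44 to -0.70, are all in the panel of Notch1 block in DN3.

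The inducible HSP70 genes Hspa1a and Hspa1b varied more between libraries of a group than the other members did. Their within-group coefficient of variation had a median over the 12 groups of 107% for Hspa1a and 103% for Hspa1b, while that of the other members lay between 9.84% for Hspa8 and 19.4% for Dnajb1. The summed level of both genes was 219 CPM in MxCre ETP replicate 2 and 25.7 and 7.19 CPM in the other replicates of that group. It was 314 CPM in TamCre DN3 replicate 1 and 5.72, 14.1 and 23.8 CPM in its other replicates. It was 89.2 CPM in TamCre ETP replicate 2 and 15.3, 7.18 and 19.6 CPM in its other replicates. These 3 libraries, all controls, had the highest sums of the 40 libraries and were 8.53, 13.2 and 4.56 times the next library of their group. At low levels single libraries stood apart too, with 2.62 CPM in DeltaMxCre ETP replicate 2, 5.12 times the next, and 13.7 CPM in IgG ETP replicate 3, where the other replicates had 0. In the 37 other libraries the sum ran from 0 to 64.0 CPM, with a median of 8.90.

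The same 3 libraries were also the highest of their group in a list of 16 immediate early genes, which rise within minutes of many stimuli. The summed CPM of that list was 1542 in MxCre ETP replicate 2 against 579 in the next library. It was 1960.0 against 517 in TamCre DN3 replicate 1, and 1059 against 695 in TamCre ETP replicate 2. Another library, DeltaTamCre ETP replicate 1, reached 1766 CPM in the immediate early list and 32.3 CPM in the Hspa1 sum, where its nearest group member had 31.0. In 7 of the 12 groups 1 library was highest in both sums. Groups this small yield some such matches by chance, and the count was not tested. Some rest on small gaps, as in MxCre DN3, where the highest immediate early sum was 1.07 times the next. Over the 24 libraries of the pI-pC and antibody table, with group means removed, the correlation of both sums on the log2(CPM + 1) scale was r = 0.55 (within-group permutation p = 0.12, adjusted over 8 relations 0.21) and rho = 0.35 (p = 0.16, adjusted 0.26). Without MxCre ETP replicate 2 and IgG ETP replicate 3, the farthest from the median, r was 0.44. In the tamoxifen tables r of both sums was 0.85 in DN3 and 0.74 in ETP, where each holds 1 of these 3 libraries.

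**Figure D2:**
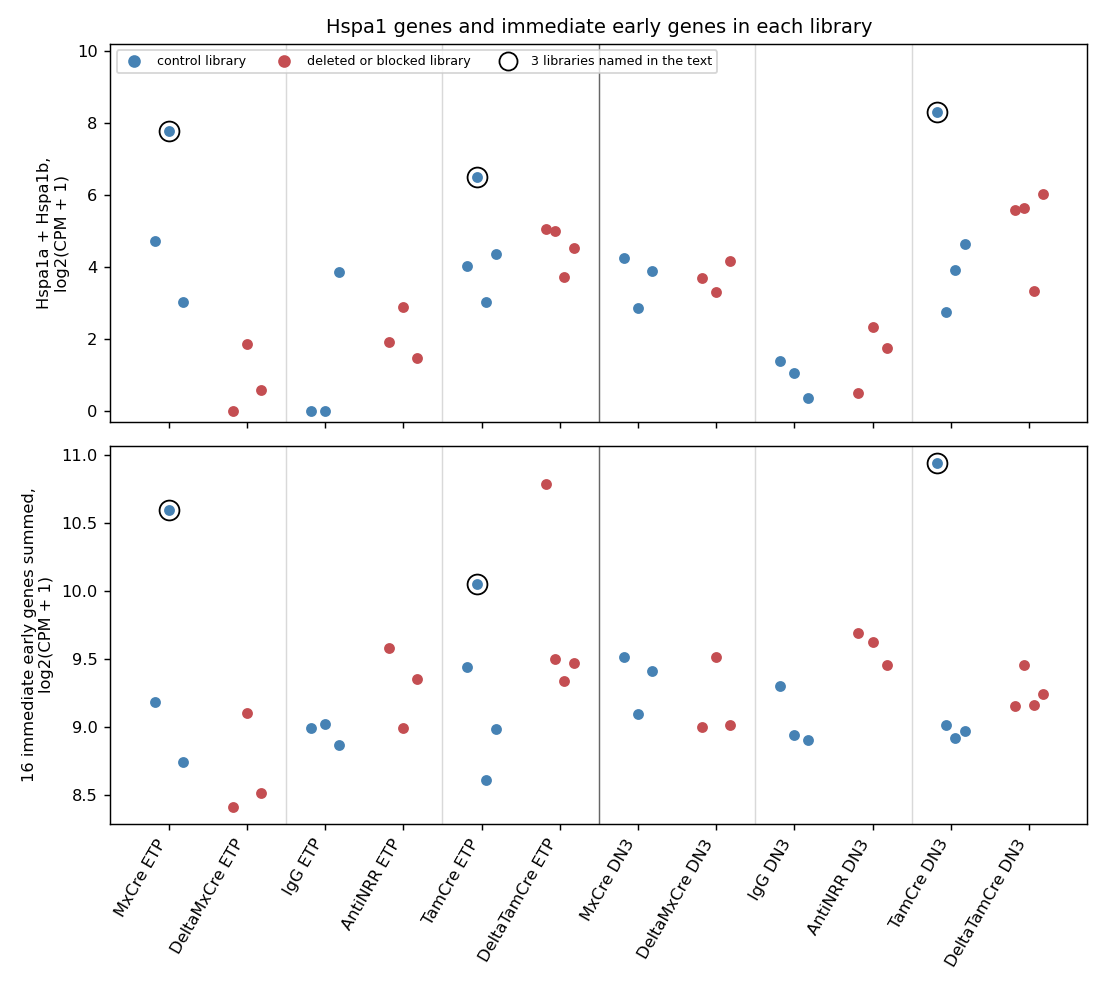
Summed level of Hspa1a and Hspa1b (upper panel) and of 16 immediate early genes (lower panel) in each library, as log2(CPM + 1) on the y axis, by group on the x axis with ETP left and DN3 right of the dark line. Each point is 1 library and rings mark MxCre ETP replicate 2, TamCre ETP replicate 2 and TamCre DN3 replicate 1. The ringed libraries stand above the rest of their group in both panels, and 0 counts of both genes were found in 1 DeltaMxCre ETP and 2 IgG ETP libraries.

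At the low end, 0 counts of either gene were found in DeltaMxCre ETP replicate 1 and in IgG ETP replicates 1 and 2. In DeltaMxCre ETP the counts of Hspa1a were 0, 43 and 0, and those of Hspa1b were 0, 0 and 8, so each gene was at 0 in 2 of 3 libraries, and their sum reached 2.62 CPM at most. In MxCre ETP the lowest sum was 7.19 CPM, from 149 counts, so the groups did not overlap. The fitted log2 fold change of the sum was -6.30 (SE 2.04, edgeR adjusted p = 0.84) and depends on the prior count. Alone, Hspa1a had -5.81, which became -3.21 without MxCre ETP replicate 2 and -12.72 without DeltaMxCre ETP replicate 2. Hspa1b had -7.57, which became -12.16 without DeltaMxCre ETP replicate 3. Both genes were at 0 counts in some of these libraries, and none of the values was called. In the IgG and AntiNRR groups the sum stayed at or under 13.7 CPM. Hspa1a failed the filter on low counts under Notch1 block in DN3, and both genes failed it between IgG DN3 and IgG ETP.

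The sign of the tamoxifen differences changed without the high control libraries. In DN3 the log2 fold change of Hspa1a was -1.29 (SE 1.61, edgeR adjusted p = 0.75) with all libraries and 2.01 (adjusted p = 0.47) without TamCre DN3 replicate 1. For Hspa1b it moved from -0.91 to 1.30, and the sum of both genes had -1.08 (SE 1.38, adjusted p = 0.76) with all libraries. In ETP it moved from -0.82 to 0.67 for Hspa1a and from -0.13 to 0.88 for Hspa1b without TamCre ETP replicate 2, and the sum had -0.43 (SE 0.79, adjusted p = 0.95) with all libraries. Neither gene passed the threshold in any of these fits.

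Dnajb1, the J-domain partner of the inducible HSP70 proteins, was the member called between the stages in both sets of controls. It was at 109, 111 and 108 CPM in IgG ETP and at 65.6, 53.8 and 53.0 CPM in IgG DN3. Every DN3 library lay below every ETP library, a fall of 0.93 on the log2 scale (SE 0.15, edgeR adjusted p = 0.000577), in a comparison in which 14.7% of all genes were called and 7.6% were called lower. In MxCre controls the levels were 130.2, 221 and 129 CPM in ETP and 84.1, 53.3 and 72.3 CPM in DN3. The groups again did not overlap, and Dnajb1 fell by 1.23 on the log2 scale (SE 0.27, adjusted p = 0.0454), where 2.99% of genes were called and 2.1% called lower. The MxCre call was lost, at adjusted p from 0.11 to 0.23, without MxCre DN3 replicate 1, 2 or 3 or without MxCre ETP replicate 2, the library with high Hspa1 genes. The IgG call held without each library in turn. Dnajb1 was the 1 member called in each stage comparison, of 8 tested in IgG and 10 in MxCre controls. In IgG controls 1 of 8 is near the share of all genes called (14.7%).

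Rn45s also differed between the stages, at 8.92% to 13.8% of counts in IgG ETP and 2.75% to 3.74% in IgG DN3. Of the 16 immediate early genes, 14 were tested in IgG controls, of which 2 were lower in DN3 and 1 was higher. The part of Rn45s or of the immediate early genes in the Dnajb1 difference was not tested. The number of sorted cells differed with the stage by the labels, so the 2 cannot be told apart in these comparisons. In the tamoxifen tables, which come from different kits for the 2 stages, Dnajb1 averaged 114 CPM in TamCre ETP (SD 26.2, n = 4) and 138 CPM in TamCre DN3 (SD 40.0, n = 4), and no comparison of those stages was made.

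Under Notch1 block the mean of Dnajb1 lay above that of its controls at both stages, while the Hspa1 genes differed in direction in ETP: the log2 fold change was 0.71 (SE 1.94) for Hspa1b, -0.89 (SE 1.85) for Hspa1a and -0.31 (SE 1.72) for their sum. Without AntiNRR ETP replicate 2 that of Hspa1b was -0.35. In DN3 it was 1.86 (SE 1.35) for Hspa1b and 1.14 (SE 1.15) for the sum. In ETP it was at 157, 138 and 149 CPM with the antibody, all above the IgG libraries, a log2 fold change of 0.43 (SE 0.16, edgeR adjusted p = 0.79). In DN3 it was at 91.4, 81.4 and 64.4 CPM, where the lowest treated library lay under the highest IgG library. The DN3 log2 fold change was 0.45 (SE 0.16, adjusted p = 0.13). Neither Dnajb1 difference passed the threshold. Without AntiNRR DN3 replicate 3 the DN3 difference did, at 0.57 (adjusted p = 0.0493). With Zmiz1 deletion its log2 fold changes ran from -0.27 in pI-pC ETP to 0.24 in pI-pC DN3, and 3 of the 4 deletion values changed sign without 1 high control, to 0.04 in pI-pC ETP without MxCre ETP replicate 2, 0.15 in tamoxifen ETP without TamCre ETP replicate 2 and 0.17 in tamoxifen DN3 without TamCre DN3 replicate 1.

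**Figure D3:**
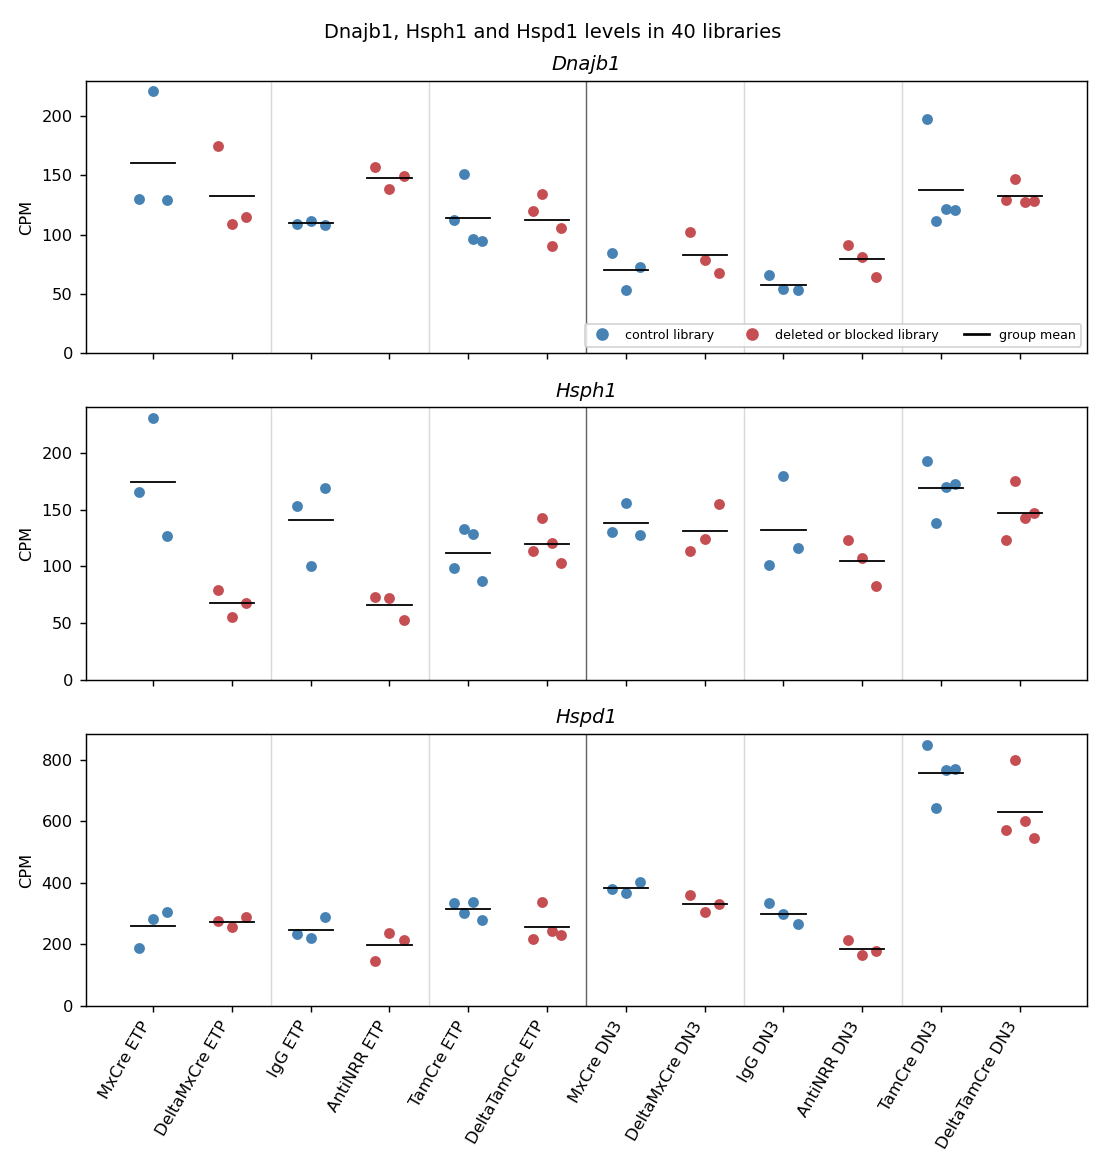
Levels of Dnajb1, Hsph1 and Hspd1 in CPM (y axes, from 0) in the 40 libraries by group (x axis, ETP left and DN3 right of the dark line). Points are libraries and black lines are group means; the tamoxifen groups come from other kits than the MxCre and antibody groups. Dnajb1 lay higher in ETP than in DN3 in the MxCre and IgG groups, Hsph1 was lowest in DeltaMxCre ETP and AntiNRR ETP, and Hspd1 was lowest on average in AntiNRR DN3.

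Hsph1, the inducible HSP110 exchange factor, had the lowest unadjusted p of the members in ETP cells in both the pI-pC and the antibody experiment. It was at 79.2, 55.2 and 67.8 CPM in DeltaMxCre ETP and at 166, 232 and 127 CPM in MxCre ETP. All 3 deleted libraries lay below all controls, with a log2 fold change of -1.38 (SE 0.27) that missed the edgeR threshold (adjusted p = 0.17). DESeq2 gave an adjusted p of 0.000828, the fit without a filter on low counts 0.0137, and the fit with a spread shared by 8 groups 0.00238. Its highest control was MxCre ETP replicate 2, the library that also stood apart in the Hspa1 sum and the immediate early list, and without it the log2 fold change was -1.11 (adjusted p = 0.71). Without MxCre ETP replicate 3, its lowest control, Hsph1 passed the edgeR threshold (-1.57, adjusted p = 0.0195), and it did not pass when any of the 5 other libraries was left out.

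With the Notch1 antibody, Hsph1 in ETP was at 72.8, 72.0 and 52.8 CPM, against 154, 101 and 170 CPM with IgG. The groups did not overlap, and the log2 fold change was -1.10 (SE 0.22, edgeR adjusted p = 0.24). DESeq2 gave an adjusted p of 0.00585 and the fit without a filter 0.0140, while the fit with a shared spread gave 0.0658. In the tamoxifen ETP pair, the levels of Hsph1 overlapped, at 98.4, 133, 129 and 87.1 CPM in TamCre and 114, 143, 121 and 103 CPM in DeltaTamCre. The log2 fold change there was 0.10 (SE 0.16, adjusted p = 0.94).

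In DN3 cells Hsph1 lay closer to its controls. The log2 fold change was -0.07 (SE 0.15) with pI-pC deletion, -0.20 (SE 0.12) with tamoxifen deletion and -0.35 (SE 0.20) with Notch1 block, with edgeR adjusted p of 0.87, 0.46 and 0.44. The difference between the DN3 and ETP effects of pI-pC deletion was 1.30 on the log2 scale (SE 0.31, adjusted p = 0.39 in edgeR and 0.0291 in DESeq2). For Notch1 block it was 0.76 (SE 0.32, adjusted p = 0.90 in edgeR and 0.74 in DESeq2). In DeltaMxCre ETP the ETP markers were also low and the DN3 markers high: the 8 ETP markers summed to 386 to 494 CPM against 790.4 to 1078 CPM in MxCre ETP, and the 8 DN3 markers to 7176 to 8082 CPM against 3106 to 4222 CPM, with none of either list at 0. By edgeR 3 of the 8 DN3 markers were called higher and 0 of the 8 ETP markers were called. Of the 15 immediate early genes tested 14 were below 0 (median log2 fold change -1.02), and the list summed to 340.1 to 547 CPM in DeltaMxCre ETP and 427 to 1542 CPM in MxCre ETP. The 8 myeloid markers summed to 45.6 to 85.3 CPM against 85.0 to 224 CPM (median -1.62 over 7 tested, Cd14 at 0 in both), and the 8 natural killer and innate lymphoid markers to 73.8 to 138 CPM against 179 to 379 CPM (median -1.96 over 5 tested, Klrb1c at 0 in DeltaMxCre ETP and Ncr1 in MxCre ETP). By edgeR 0 genes of these 3 lists were called, where DESeq2 called 1, 2 and 1 lower. Under Notch1 block in ETP all 8 DN3 markers were below 0 (median -1.34), with none at 0 and 0 called by edgeR, and summed to 848 to 2534 CPM against 3683 to 5360 CPM with IgG. The part of these measures in the Hsph1 and other chaperone differences in ETP was not tested.

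Hsp90aa1 encodes the stress-inducible cytosolic HSP90. In DN3 cells it was at 547, 599 and 589 CPM with the Notch1 antibody and at 919, 963 and 796 CPM with IgG. The groups did not overlap, and it fell by 0.64 on the log2 scale (SE 0.09, edgeR adjusted p = 0.000101), a level 35.7% lower. In ETP the antibody libraries were at 481, 799 and 547 CPM and the IgG libraries at 756, 709 and 1196 CPM, which overlapped, with a log2 fold change of -0.54 (SE 0.23, adjusted p = 0.86). Its log2 fold changes with Zmiz1 deletion were below 0 in all 4 pairs, from -0.14 in tamoxifen ETP to -0.49 in pI-pC ETP, with adjusted p from 0.23 to 0.92.

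Hsp90ab1, the constitutive HSP90, was among the members lower under Notch1 block in DN3, at 1593, 1965 and 1877 CPM against 2444, 2552 and 2312 CPM with IgG. It fell by 0.44 on the log2 scale (SE 0.09, edgeR adjusted p = 0.00341). Of the members it also had the lowest unadjusted p under pI-pC deletion in DN3, at 2853, 2245 and 2613 CPM in DeltaMxCre and 3554, 3500.5 and 3785 CPM in MxCre. Those groups did not overlap, and the log2 fold change was -0.49 (SE 0.13, edgeR adjusted p = 0.081). DESeq2 called it (adjusted p = 0.0067), as did the fit without a filter (0.0440), and the fit with a shared spread did not (0.41). In the same pair Rn45s took 4.71% to 5.07% of counts in DeltaMxCre DN3 and 6.76% to 8.82% in MxCre DN3, and the nuclear RNA Malat1 0.961% to 1.33% against 0.324% to 0.711%. The 8 ETP markers summed to 105 to 140.2 CPM against 107 to 142 CPM, with none at 0 and 2 of 6 tested lower, and 1 of the 8 DN3 markers was higher and 1 lower. The part of these measures in the Hsp90ab1 difference was not tested.

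In pI-pC ETP, Hsp90ab1 was at 2659, 2059 and 2557 CPM in DeltaMxCre and 3081, 3197 and 3914 CPM in MxCre. All deleted libraries again lay below all controls, with a log2 fold change of -0.48 (SE 0.19, edgeR adjusted p = 0.81). In tamoxifen DN3 the 4 deleted libraries ran from 4143 to 5163 CPM and the 4 controls from 4634 to 6766 CPM, with a log2 fold change of -0.32 (SE 0.12, adjusted p = 0.23). In tamoxifen ETP the log2 fold change was -0.18 (SE 0.15) and under Notch1 block in ETP it was -0.37 (SE 0.20), with adjusted p of 0.91 and 0.95.

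Hspa4, the constitutive HSP110 exchange factor, was at 280.5, 308 and 296 CPM in AntiNRR DN3 and at 381, 439.8 and 372 CPM in IgG DN3. The groups did not overlap, and it fell by 0.45 on the log2 scale (SE 0.10, edgeR adjusted p = 0.00637). The call for Hspa4 was lost without IgG DN3 replicate 2, its highest control. Hspa4 was below its controls on average in the other 5 pairs too, by log2 values from -0.17 to -0.23, none called. Its libraries did not overlap in pI-pC DN3, at 439, 368 and 423 CPM deleted and 499.6, 456 and 485 CPM control, nor in tamoxifen ETP, at 285 to 387 CPM deleted and 393 to 442 CPM control.

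Hspa8 encodes the constitutive HSP70 of the cytosol and had the highest mean per length in IgG DN3. It was at 3193, 3285 and 2740.4 CPM in AntiNRR DN3 and at 3258, 4175 and 3578 CPM in IgG DN3. These ranges overlapped, and the log2 fold change was -0.27 (SE 0.10, edgeR adjusted p = 0.11). It passed the threshold without a filter on low counts (adjusted p = 0.0452) and without IgG DN3 replicate 1 (0.0319), and without IgG DN3 replicate 2 it was -0.17 (adjusted p = 0.54). In ETP the antibody libraries, at 3150 to 3327 CPM, all lay below the IgG libraries, at 3937 to 5234 CPM, with a log2 fold change of -0.46 (SE 0.15, adjusted p = 0.74). In pI-pC ETP the deleted libraries, at 3611 to 3973 CPM, all lay below the controls, at 4157 to 5534 CPM, with a log2 fold change of -0.42 (SE 0.18, adjusted p = 0.87).

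Hspd1, the mitochondrial chaperonin, showed the largest fall among the members called under Notch1 block in DN3. It was at 215, 167 and 177 CPM with the antibody and at 334, 299.9 and 266 CPM with IgG. Every treated library lay below every control, and it fell by 0.70 on the log2 scale (SE 0.11, edgeR adjusted p = 0.000394), a level 38.3% lower. In ETP the antibody libraries were at 145, 237 and 214 CPM and the IgG libraries at 233, 221 and 291 CPM. Those overlapped, with a log2 fold change of -0.32 (SE 0.20, adjusted p = 0.97), and the difference between the DN3 and ETP effects was -0.36 (SE 0.24, adjusted p = 0.93). With pI-pC deletion in DN3 the log2 fold change of Hspd1 was -0.20 (SE 0.12, adjusted p = 0.46), and the difference between that effect and the effect of Notch1 block was 0.48 (SE 0.17, adjusted p = 0.19).

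Hspe1, the lid of the chaperonin, lies on the other side of the printed heat shock units. Under Notch1 block in DN3 it was at 55.7, 48.1 and 44.7 CPM, against 70.0, 61.3 and 46.3 CPM with IgG. The ranges overlapped, and the log2 fold change was -0.27 (SE 0.18, edgeR adjusted p = 0.51). In tamoxifen DN3 it was at 188, 178, 154 and 162 CPM in deleted libraries and 208, 214, 194 and 189 CPM in controls, and all deleted libraries lay below all controls. The log2 fold change there was -0.24 (SE 0.08, adjusted p = 0.20). Between control stages Hspd1 was at 379, 366 and 402 CPM in MxCre DN3 and 189, 283 and 304 CPM in MxCre ETP, without overlap, and Hspe1 at 67.6, 67.9 and 64.0 CPM against 43.6, 43.7 and 54.0 CPM. Neither was called, with log2 differences of 0.54 (adjusted p = 0.23) and 0.47 (adjusted p = 0.29). In IgG controls these were 0.27 and -0.24, and Hspd1 passed the threshold without IgG ETP replicate 3.

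**Figure D4:**
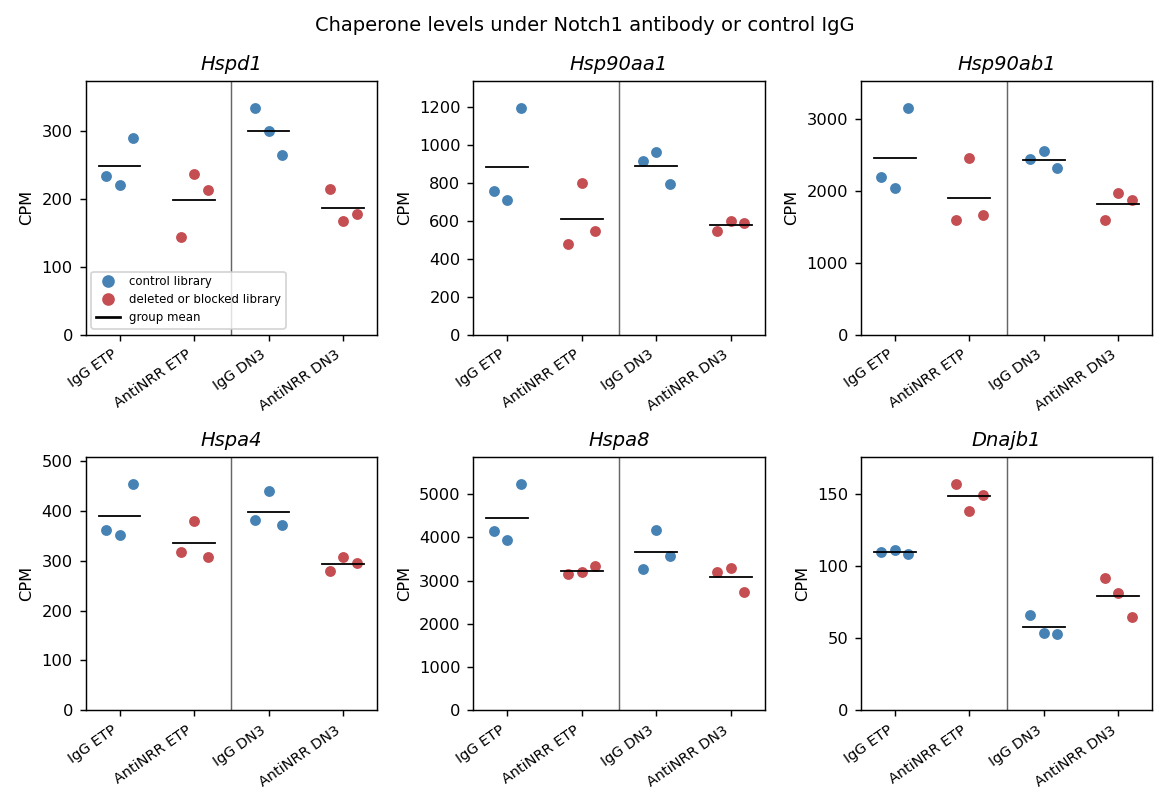
Levels in CPM (y axes, from 0) of Hspd1, Hsp90aa1, Hsp90ab1, Hspa4, Hspa8 and Dnajb1 with control IgG (blue) or the Notch1 antibody (red) in ETP and DN3 (x axis). Points are libraries, 3 per group, and black lines are group means. In DN3 the treated libraries of the first 4 genes all lie below their controls, while Dnajb1 has its higher mean in the treated groups at both stages.

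Other measures moved with the Notch1 block in DN3. Rn45s took 4.77% to 6.80% of counts in AntiNRR DN3 and 2.75% to 3.74% in IgG DN3. The 8 DN3 markers summed to 6084 to 7069 CPM against 11598 to 11798 CPM, with none at 0, and 6 of the 8 were called lower. The 8 ETP markers summed to 197 to 237 CPM against 137 to 157 CPM, and 1 of the 5 tested, Kit, was higher, while Cd34 and Lyl1 were at 0 in AntiNRR DN3 and Flt3 at 0 in IgG DN3. Of the 13 immediate early genes tested 3 were higher and 0 lower, and the list summed to 702 to 827 CPM against 479 to 630.3 CPM. The 8 myeloid markers summed to 16.5 to 25.4 CPM against 13.3 to 25.5 CPM, with Mpo, Cd14 and Fcgr3 at 0 in both groups and 0 of 2 called. The 8 natural killer and innate lymphoid markers summed to 222 to 249 CPM against 116 to 143 CPM, with Ncr1, Klrb1c and Gzmb at 0 in both groups and 1 of 2 tested higher (Gzma). The 8 dendritic-cell markers summed to 601 to 710.0 CPM against 212 to 254 CPM, with Clec9a at 0 in both groups and 1 of 5 tested higher (Ccr9, which thymocytes also express). The 7 markers of double-positive thymocytes summed to 2252 to 2549 CPM against 2065 to 2526 CPM, with none at 0, 1 higher and 1 lower. B-cell, erythroid and thymic stromal markers summed to at most 34.3, 11.4 and 99.5 CPM, with 0 called, and Ms4a1, Pax5 and Foxn1 were at 0 in both groups. The part of these measures in the chaperone differences was not tested. The members took 0.611% to 0.684% of counts in AntiNRR DN3 and 0.8065% to 0.936% in IgG DN3.

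The difference between effects was tested in 4 contrasts within the pI-pC and antibody table, and edgeR called 0 members in each. For the stage difference of pI-pC deletion, with 0.00746% of all genes called, 3 members had an unadjusted p under 0.05 (5.52% of genes). DESeq2 called 2 members, Hspa1b and Hsph1. For the stage difference of Notch1 block, with 0% of genes called, 1 member had an unadjusted p under 0.05 (5.46% of genes) and DESeq2 called 0. For pI-pC deletion against Notch1 block in ETP, with 0.082% of genes called, 2 had an unadjusted p under 0.05 (6.4% of genes). DESeq2 called 0 there. Dnajb1 was 1 of those 2, with a difference of -0.69 (SE 0.32, adjusted p = 0.77). For the same contrast in DN3, with 1.23% of genes called, Hspd1 was the 1 member with an unadjusted p under 0.05. That is near the share of all genes (12.5%), and DESeq2 called 0 members. These tests do not show that the effects were alike. The tamoxifen pairs were not tested against the others, since their kits differ.

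The wider chaperone network was followed in 98 further genes, of which 87 to 90 were tested in a comparison. Under Notch1 block in DN3, 11 of 88 (12.5%) were lower, against 2.96% of all genes, and 1 was higher. These lists were also chosen with earlier results of these data known, so that share is a description and not a test. TRiC, the cytosolic chaperonin that folds actin and tubulin, and its partner prefoldin had 4 of 13 tested genes lower, all of them TRiC subunits. Of these Cct6a fell by 0.52, Cct8 fell by 0.44 and Cct7 fell by 0.39 on the log2 scale (edgeR adjusted p = 0.00102, 0.00976 and 0.0202). Among HSP90 co-chaperones 4 of 15 were lower. Fkbp4, an immunophilin of steroid receptor complexes, was at 179 CPM (SD 1.27, n = 3) with the antibody and 264 CPM (SD 21.7, n = 3) with IgG, and fell by 0.57 (SE 0.10, adjusted p = 0.001004). Hspbp1, an HSP70 nucleotide exchange factor, fell by 1.27 (SE 0.30, adjusted p = 0.0124).

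Hspa4l, a paralog of Hspa4, was the 1 wider gene that rose, by 0.75 on the log2 scale (SE 0.18, edgeR adjusted p = 0.0144), from 33.9 CPM (SD 2.70, n = 3) to 57.6 CPM (SD 7.18, n = 3). Of the 2 heat shock factors tested, 0 were called. Of the 9 mitochondrial chaperones and proteases 0 were called, by edgeR, and DESeq2 called 1. The 13 chaperones of the endoplasmic reticulum had 1 lower. In the other 5 treated-control pairs edgeR called 0 of the wider genes. Fkbp4 had the lowest p of the wider genes in pI-pC DN3 (log2 fold change -0.49, SE 0.12, adjusted p = 0.065) and under Notch1 block in ETP (-0.75, SE 0.19, adjusted p = 0.53).

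Between IgG stages 5 of 88 wider genes (5.68%) were lower in DN3, below the 7.6% of all genes called lower, among them Pfdn5, Calr, Ptges3 and Pdia3, and Fkbp5, a glucocorticoid-responsive HSP90 co-chaperone, was the 1 gene higher. Fkbp5 was at 1147 CPM (SD 60.2, n = 3) in IgG DN3 and 603 CPM (SD 73.3, n = 3) in IgG ETP, a log2 difference of 0.93 (SE 0.12, edgeR adjusted p = 9.6e-05). Between MxCre stages 0 of 87 wider genes were called, by edgeR, and Fkbp5 differed by 0.95 (SE 0.25, adjusted p = 0.076).

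Within groups, the chaperonin pair and the HSP90 pair each varied together between libraries. Over the 24 libraries of the pI-pC and antibody table, on the log2(CPM + 1) scale with group means removed, Hspd1 and Hspe1 had r = 0.70 (within-group permutation p = 0.00073, adjusted over 8 relations 0.0058) and rho = 0.77 (p = 0.00063, adjusted 0.005). Without the 2 libraries farthest from the median, r was 0.70. Hsp90aa1 and Hsp90ab1 had r = 0.71 (permutation p = 0.0083, adjusted 0.033) and rho = 0.57 (p = 0.03, adjusted 0.1), and r was 0.67 without 2 libraries. Hspa1a and Hspa1b had r = 0.70 (permutation p = 0.03, adjusted 0.08) and rho = 0.54 (p = 0.038, adjusted 0.1), and r was 0.46 without MxCre ETP replicate 2 and IgG ETP replicate 3.

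The Hspd1 and Hspe1 relation was 0.83 in tamoxifen ETP and 0.06 in tamoxifen DN3, with 4 libraries in each of 2 groups. In the same order, Hsp90aa1 and Hsp90ab1 had 0.94 and 0.89, and Hspa1a and Hspa1b had 0.94 and 0.996. The Hspa1 sum and Dnajb1 had r = 0.25 (permutation p = 0.45, adjusted 0.51) and rho = 0.12 (p = 0.63, adjusted 0.63), and r was 0.03 without MxCre ETP replicate 2 and IgG ETP replicate 3. In the tamoxifen tables r of that pair was 0.88 in DN3 and 0.87 in ETP, and both tables hold 1 library high in both. For Dnajb1 and the immediate early sum r was 0.51 (permutation p = 0.13, adjusted 0.21), for the Hspa1 sum and Hsph1 it was 0.39 (p = 0.24, adjusted 0.32), and for Hsph1 and Hsp90aa1 it was 0.10 (p = 0.74, adjusted 0.74). In tamoxifen DN3 these 3 relations had r of 0.98, 0.58 and 0.90. In tamoxifen ETP they had 0.68, 0.24 and 0.44. Libraries share depth and input amount, so these values describe the libraries.

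By the same measure, the genes most like the mean of the 5 stress-inducible members among 9255 compared over the 24 libraries were Pip4k2a (r = 0.89), Ier2 (0.795), Gtpbp1 (0.79), Wdr18 (0.79) and Il18rap (0.79). The members were not scaled before averaging. Hspa1a and Hspa1b varied most, so this mean follows them more than it follows Dnajb1, Hsph1 or Hsp90aa1. Ier2 is an immediate early gene, and its r was 0.88 in tamoxifen DN3 and 0.59 in tamoxifen ETP, whereas Pip4k2a had 0.43 and -0.66. For the mean of Hspd1 and Hspe1 they were Prcp (0.90), Mrps18c (0.85), Cct2 (0.85), Sfr1 (0.85) and Paics (0.84). Cct2, a TRiC subunit, had 0.87 in tamoxifen DN3 and 0.78 in tamoxifen ETP. No p is given for genes chosen for their likeness.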

How the data were processed

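Estimated counts for each gene symbol were deposited in 3 tables with no scaling between libraries, and 0.711% to 1.19% of values were more than 0.01 from a whole number; the authors' counts were rounded. Per the submitters' processing notes, the build was mm10 and the tools included Cuffdiff 2.1.1, Cufflinks, Bowtie2 2.1.0.0, TopHat2 2.0.9 and FastQC 0.10.0, with no roles given; the annotation, strand and treatment of reads matching several genes are not given in the sources used here.

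Each comparison used its 2 groups, and each difference between effects used its 4 groups, in R 4.3.3 with edgeR 4.0.16 (filterByExpr with minimum count 10 and minimum total 15, TMM, robust quasi-likelihood F test, prior count 0.125), with Benjamini-Hochberg adjustment over all genes tested and a threshold of 0.05. CPM values were scaled by TMM over each table, and log2 fold changes are treated or deleted minus control. Alternatives were DESeq2 1.42.0, its size factors in edgeR, no filter, a spread shared by 8 groups, a replicate block, Hspa1a and Hspa1b summed, and each library left out. Correlations used log2(CPM + 1) with group means removed and 1e+05 permutations within groups. The test script was tested on simulated data. The chaperones and the gene lists were chosen with earlier results of these data known. Named genes are the 10 chaperones, from the wider lists up to 6 called genes with the lowest p, otherwise the gene of lowest p in a list, and the 5 genes most alike by r with a mean of at least 5 CPM. Pairs of libraries within a group differed by more than sampling noise (chi-square per degree of freedom 17.2 to 214). Immediate early genes and markers of ETP, DN3, double-positive, myeloid, B, natural killer, dendritic, erythroid and stromal cells were followed as lists. Exonic length is the union of GENCODE M21 exons.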

Additional observations from a re-analysis of the deposited data

Results flagged for a closer look

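With 4 libraries in a group, a library was singled out where its gap to the nearest other exceeded Dixon's critical share of the group's range. This was met by 7 of 40 combinations of a chaperone and a tamoxifen group. The share of all genes that met it was not computed, and several flags fall on the same library, so the count is a description. In TamCre DN3 replicate 1, Hspa1a was at 156 CPM (nearest 8.05), Hspa1b at 158 CPM (nearest 15.8) and Dnajb1 at 197 CPM (nearest 122). In TamCre ETP replicate 2, Hspa1a was at 47.5 CPM (nearest 7.27). These libraries were also the highest of their groups in immediate early genes. In DeltaTamCre DN3 replicate 2, Hsp90aa1 was at 1620 CPM (nearest 1182) and Dnajb1 at 147 CPM (nearest 129), and in DeltaTamCre ETP replicate 2, Hspe1 was at 140.4 CPM (nearest 87.6).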

How the results depend on the processing

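Every comparison was repeated under the alternatives listed above, and the cause of each change below was not tested. Of 586 values with 1 library left out 539 kept their direction and call, 37 changed sign, 5 lost a call and 5 gained one. Of 396 values under the other settings 372 kept both, 7 changed sign, 4 lost a call and 13 gained one. None of the 44 values that changed sign was called before or after. Scaling by DESeq2's size factors in edgeR kept the same 4 calls under Notch1 block in DN3. Low counts limit Hspa1a and Hspa1b, which had 0 counts in some libraries.

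With DESeq2 the members called were 1 in pI-pC ETP (Hsph1), 1 in pI-pC DN3 (Hsp90ab1), 1 under Notch1 block in ETP (Hsph1) and 2 for the stage difference of pI-pC deletion (Hspa1b and Hsph1). All genes called by DESeq2 were 86 in pI-pC ETP, 527 in pI-pC DN3, 2 in tamoxifen ETP, 458 in tamoxifen DN3, 28 under Notch1 block in ETP, 1016 between MxCre stages, 50 and 5 for the stage differences of pI-pC deletion and Notch1 block, and 80 and 344 for pI-pC deletion against Notch1 block in ETP and DN3. In edgeR these were 5, 183, 0, 11, 0, 371, 1, 0, 11 and 167.

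Without a filter on low counts, 1 member was called in pI-pC ETP (Hsph1; 18 genes in all), 1 in pI-pC DN3 (Hsp90ab1; 347 genes), 1 under Notch1 block in ETP (Hsph1; 8 genes) and 5 under Notch1 block in DN3 (Hspa8 added). With the spread shared by 8 groups, 1 member was called in pI-pC ETP (Hsph1; 175 genes), 2 between MxCre stages (Dnajb1 and Hspd1; 1474 genes) and 0 under Notch1 block in DN3 (69 genes), with adjusted p of 0.077 for Hspd1, 0.25 for Hspa4, 0.27 for Hsp90aa1 and 0.41 for Hsp90ab1. All genes called with that spread were 20 in pI-pC DN3, 6 under Notch1 block in ETP and 936 between IgG stages. With both genes summed, the log2 fold change was -0.004 in pI-pC DN3, where Hspa1a alone gave 0.11, and -0.31 under Notch1 block in ETP, where Hspa1b alone gave 0.71.

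Replicate numbers did not pair the libraries: same-numbered libraries deviated from their group means with correlations from -0.58 to 0.25, and in no comparison did all pairs exceed 0.1 or every library correlate best with its own number. With the replicate number as a block, 1 member was called in pI-pC ETP (Hspa1a, 14 genes in all) and 5 under Notch1 block in DN3 (Hspa8 added), while genes called were 663 between MxCre stages and 0 in tamoxifen DN3. Under the block Hspa1a had 3.97 under Notch1 block in ETP and 0.54 in tamoxifen DN3, Hspa1b had 0.21 in tamoxifen DN3 and 0.35 in tamoxifen ETP, and Hsp90ab1 had 0.0098 between IgG stages, all on the log2 scale and not called.

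With each library left out in turn, members called ranged from 3 to 5 under Notch1 block in DN3, from 0 to 1 in pI-pC ETP, from 0 to 1 between MxCre stages, from 1 to 2 between IgG stages and from 0 to 1 for the stage difference of pI-pC deletion (Hspa1b, without MxCre ETP replicate 3). Genes called ranged from 0 to 17 in pI-pC ETP, 12 (without DeltaMxCre DN3 replicate 3) to 403 in pI-pC DN3, 0 to 1 in tamoxifen ETP, 0 to 8 in tamoxifen DN3, 0 to 5 under Notch1 block in ETP, 351 (without IgG DN3 replicate 3) to 677 under Notch1 block in DN3, 135 (without MxCre ETP replicate 2) to 735 between MxCre stages and 941 (without IgG DN3 replicate 3) to 1883 between IgG stages. For the stage differences they ranged from 0 to 12 for pI-pC deletion and 0 to 3 for Notch1 block, and for pI-pC deletion against Notch1 block from 5 to 26 in ETP and 99 to 290 in DN3.

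Log2 values that changed sign in the same way had these ranges. In pI-pC ETP, Dnajb1 ranged from -0.52 to 0.039, Hspd1 from -0.096 to 0.20 and Hspe1 from -0.36 to 0.025. In pI-pC DN3, Hspa1a ranged from -0.37 to 0.59, Hspa1b from -0.38 to 0.35 and Hsph1 from -0.21 to 0.026. In tamoxifen ETP, Dnajb1 ranged from -0.11 to 0.15, Hspa1a from -1.15 to 0.67, Hspa1b from -0.47 to 0.88 and Hspa8 from -0.06 to 0.085. In tamoxifen DN3, Dnajb1 ranged from -0.14 to 0.17, Hspa1a from -1.70 to 2.01 and Hspa1b from -1.29 to 1.30. Under Notch1 block in ETP, Hspa1a ranged from -1.48 to 7.72, Hspa1b from -0.35 to 7.70 and Hspe1 from -0.27 to 0.065. Between MxCre stages Hsp90aa1 ranged from -0.12 to 0.35. Between IgG stages Hsp90aa1 ranged from -0.13 to 0.28, Hsp90ab1 from -0.13 to 0.20, Hspa4 from -0.048 to 0.15 and Hsph1 from -0.38 to 0.067.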
